A study of Homo sapiens with 2 samples.

Results

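A set of 10 genes that damp or relay the ERK mitogen-activated protein kinase pathway was examined in PC9 cells expressing TAZ4SA and in control PC9 cells. They are the phosphatase genes DUSP4, DUSP5 and DUSP6, the Sprouty genes SPRY1, SPRY2 and SPRY4, the Spred genes SPRED1 and SPRED2, and the ETS transcription factor genes ETV4 and ETV5. They were chosen by symbol, with earlier results of these data known. All 10 were found among the 16642 genes of the deposited table. PC9 is an established human lung adenocarcinoma line driven by an activating deletion in the EGF receptor. TAZ4SA is an active form of TAZ, a transcriptional co-activator restrained by the Hippo kinases, with serines changed to alanine so that those kinases no longer inhibit it. Parental cells were transduced with the lentiviral plasmids pLVX-Tet-On Advanced, as control, pLVX-TP-3F-TAZ4SA, or both, and cells below confluence received 50 ng/mL doxycycline for 24 h to induce it. The same protocol text accompanies both samples, so whether the control cells received doxycycline, or an empty vector, was not stated separately. Each group was 1 library.

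In a cell with an active EGF receptor, RAS, RAF and MEK pass the signal to ERK, and ERK switches on genes whose products turn the pathway down. DUSP6 takes phosphate off ERK in the cytoplasm, and DUSP4 and DUSP5 do so in the nucleus. Sprouty proteins act between the receptor and RAF, Spred proteins bring the RAS inhibitor neurofibromin to the membrane, and ETV4 and ETV5 are transcription factors of the PEA3 group made in response to ERK. The transcripts of these genes are widely used as a readout of ERK output in tumours with receptor mutations. ERK phosphorylation itself was not analysed here.

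DUSP6 had by far the lowest ratio, at 2.36-fold lower in the TAZ4SA library than in the control. SPRY1 and SPRY4 were about as low as each other, at 1.33-fold and 1.32-fold lower, and the ETS genes ETV5 and ETV4 followed. DUSP5, SPRED1 and DUSP4 were lower by smaller amounts. SPRED2 was 1.18-fold higher, and SPRY2 had a counting interval that included a ratio of 1. With 1 library per group there was no test of the conditions and no p-value. Every interval given below is an exact 95% interval of counting error alone, and the spread between cultures is unknown.

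The regulatory DNA just before the start of DUSP6, SPRY1 and SPRY4 is shown because these genes had the lowest ratios of the set. The sequences are the 250 bases before each start listed by RefSeq on GRCh38.p14, 5′ to 3′ on the strand of the gene, with matches to the motifs searched in capitals. DUSP6 lies on the minus strand at chr12:89352502-89352751, and SPRY4 on the minus strand at chr5:142324248-142324497. SPRY1 has a pair of listed starts on the plus strand, with windows at chr4:123396545-123396794 and chr4:123398136-123398385.
DUSP6: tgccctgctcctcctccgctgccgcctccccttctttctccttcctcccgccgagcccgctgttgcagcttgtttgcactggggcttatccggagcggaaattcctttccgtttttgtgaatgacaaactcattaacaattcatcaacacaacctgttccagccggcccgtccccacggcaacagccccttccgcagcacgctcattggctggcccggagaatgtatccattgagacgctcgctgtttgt
SPRY4: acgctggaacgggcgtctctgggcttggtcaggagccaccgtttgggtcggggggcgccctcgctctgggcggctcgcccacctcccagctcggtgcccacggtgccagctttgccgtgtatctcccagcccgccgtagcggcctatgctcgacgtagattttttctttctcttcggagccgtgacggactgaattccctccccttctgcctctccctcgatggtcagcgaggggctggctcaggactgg
SPRY1, upstream start: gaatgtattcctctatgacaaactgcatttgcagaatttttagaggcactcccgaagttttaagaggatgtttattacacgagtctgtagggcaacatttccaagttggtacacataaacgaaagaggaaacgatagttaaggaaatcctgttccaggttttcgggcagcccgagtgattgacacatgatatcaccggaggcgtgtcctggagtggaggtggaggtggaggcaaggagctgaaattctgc
SPRY1, downstream start: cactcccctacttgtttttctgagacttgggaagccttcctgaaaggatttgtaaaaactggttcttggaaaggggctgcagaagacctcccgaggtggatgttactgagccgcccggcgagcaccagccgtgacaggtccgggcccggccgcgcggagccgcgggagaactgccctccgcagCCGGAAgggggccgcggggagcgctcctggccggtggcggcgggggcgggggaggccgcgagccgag

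The motifs searched on both strands were TGANTCA, bound by AP-1 factors, GGAATG, bound by the TEAD partners of TAZ, and CCGGAA, bound by ETS factors. The letters GGAA are shared by the TEAD and ETS motifs, so that one stretch can match both. Of the 10 genes, 6 had an entry, with 10 windows in all; DUSP4, DUSP5, ETV4 and ETV5 are named only. The ETS motif was in 2 of the 10 windows, against 14.5% of the 35116 promoter windows of the table. One match stood 67 bases before the downstream start of SPRY1, as the capitals show, and the other 142 bases before a start of SPRY2. The AP-1 motif was in 0 of the 10 windows, against 6.57% of all windows, and the TEAD motif in 0 of 10, against 11.9%. A match is a description of letters and not a bound site, and a window without one says nothing of the factor. The windows differed in base composition: G and C made up 57.2% of the DUSP6 window, 65.6% of that of SPRY4, and 45.6% and 68.0% of those of SPRY1, beside a median of 58.0% over all windows.

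The recovered depth was 29668388 reads in TAZ4SA cells and 47684754 in control cells, so the control was read 1.61 times more deeply. Values are normalised counts, that is, reads per gene divided by a library factor that the authors set. WWTR1, the gene of TAZ, had 15628 normalised counts in TAZ4SA cells and 4933 in control cells, higher in the library labelled as expressing it. All 6 epithelial markers listed (EPCAM, KRT7, KRT8, KRT18, KRT19 and CDH1) were measured in both libraries. Their summed level was 343978 normalised counts in TAZ4SA cells and 297242 in control cells, with KRT18 (log2 ratio 0.47), KRT8 (0.37) and CDH1 (0.28) above 0 and KRT19 (-0.17) below. Of the markers of other cell types, 1 of 8 fibroblast, 3 of 8 leukocyte and 3 of 6 endothelial genes were in the table, and the others were not analysed here. The fibroblast gene was COL1A1, at 490 normalised counts in TAZ4SA and 413 in the control. The leukocyte genes summed to 56.6 in TAZ4SA cells and 39.6 in control cells, with ITGAM the one above the minimum level, at 46.4 in TAZ4SA cells and 18.9 in control cells. The endothelial genes summed to 2238 in TAZ4SA cells and 2676 in control cells, with log2 ratios of -0.30 for ESAM and -0.22 for CDH5. The part of these markers in the ratios below was not tested. In RNA from a whole culture, fewer cells expressing a gene and less RNA per cell cannot be told apart.

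The levels of different genes were compared per length, as normalised counts per kilobase of exon. DUSP4 and DUSP5 were the most abundant of the 10 transcripts in both libraries. DUSP4 had 2083 normalised counts per kilobase in TAZ4SA cells and 2264 in control cells, and DUSP5 had 1813 in TAZ4SA cells and 2069 in control cells. ETV4 came next, at 1177 in TAZ4SA cells and 1420 in control cells. The same 3 genes headed the order in both libraries.

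Below them the order was not the same in the libraries. DUSP6 stood at place 7 in the TAZ4SA library, at 427 normalised counts per kilobase, and at place 4 in the control, at 1007. SPRED2 stood at place 4 in the TAZ4SA library, at 770, and at place 7 in the control, at 652. SPRY4 had 616 normalised counts per kilobase in TAZ4SA cells and 813 in control cells, and ETV5 had 568 in TAZ4SA cells and 707 in control cells. SPRED1, SPRY1 and SPRY2 closed the order in both libraries, at 387, 266 and 146 normalised counts per kilobase in TAZ4SA cells, and at 441, 354 and 135 in control cells. Within a library, no 2 neighbours in the order had overlapping counting intervals. The order of SPRY4 and ETV5 in both libraries, and of SPRED1 and SPRY1 in the control, turned round when the longest transcript was used as the length.

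**Figure D1:**
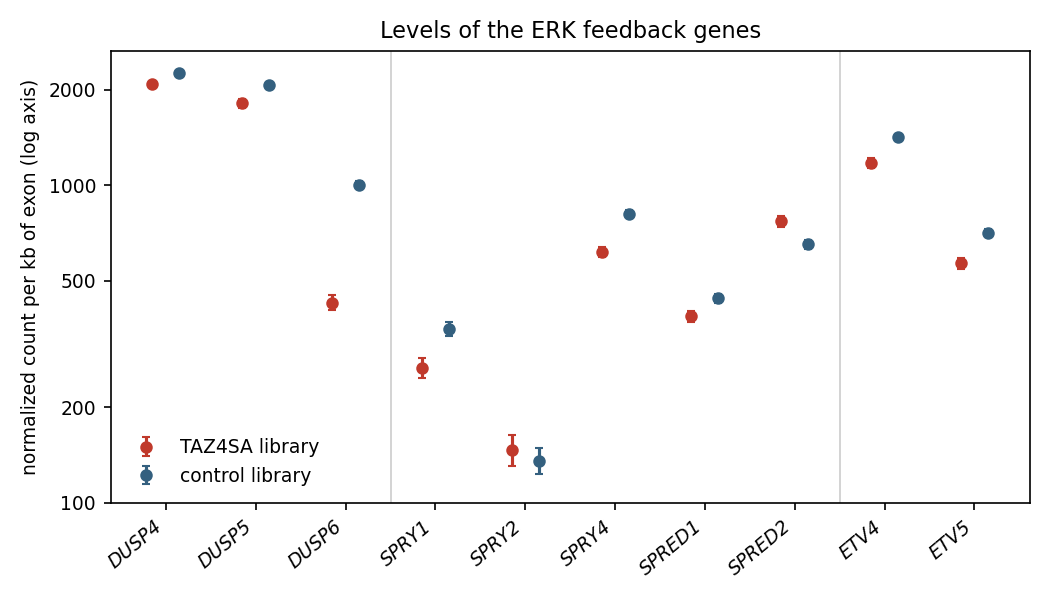
Level of each gene as normalised counts per kilobase of exon on a log axis, in the TAZ4SA library (red) and the control library (blue); bars are exact 95% Poisson intervals of the reads. DUSP6 shows the widest gap, at 427 in TAZ4SA and 1007 in the control, while SPRY2 and SPRED2 are the genes with the red point higher.

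Among the phosphatases, DUSP6 (ENSG00000139318, chromosome 12) had 1976 normalised counts in the TAZ4SA library, from 1362 reads, against 4663 in the control, from 5182 reads. Its log2 ratio, TAZ4SA over control, was -1.24 (-1.33 to -1.15), or 2.36-fold lower (2.22 to 2.51). That interval lay apart from those of the other 9 genes. DUSP6 ranked 126 from the lowest ratio among the 14074 genes with a mean normalised count of at least 20, called measured here. Among the 7423 genes with a mean of at least 1000, where counting error is small, it ranked 10 from the lowest.

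DUSP5 (ENSG00000138166, chromosome 10), a nuclear phosphatase selective for ERK, had 4742 normalised counts in TAZ4SA cells and 5411 in control cells. Its log2 ratio was -0.19 (-0.25 to -0.13). DUSP4 (ENSG00000120875, chromosome 8), a nuclear phosphatase that acts on ERK and also on JNK, had 15117 in the TAZ4SA library, from 10422 reads, and 16431 in the control, from 18262 reads. Its log2 ratio of -0.12 (-0.16 to -0.09) was the nearest to 0 of the 3 phosphatases, and its reads were the most numerous of the 10 genes.

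The makeup of the 3 phosphatase transcripts therefore differed between the libraries. Per kilobase, DUSP6 made up 9.87% of their sum in TAZ4SA cells and 18.8% in control cells. DUSP4 made up 48.2% in TAZ4SA cells and 42.4% in control cells, and DUSP5 made up 41.9% in TAZ4SA cells and 38.7% in control cells. The sum itself was 4323 normalised counts per kilobase in TAZ4SA cells and 5340 in control cells.

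Of the Sprouty genes, SPRY4 and SPRY1 were lower, and the direction of SPRY2 was not resolved. SPRY4 (ENSG00000187678, chromosome 5) had 4043 normalised counts in the TAZ4SA library, from 2787 reads, against 5339 in the control, from 5934 reads. Its log2 ratio was -0.40 (-0.47 to -0.34). SPRY1 (ENSG00000164056, chromosome 4) had 1056 in the TAZ4SA library, from 728 reads, and 1401 in the control, from 1557 reads. Its log2 ratio was -0.41 (-0.54 to -0.28), a wider interval than that of SPRY4 because fewer reads stood behind it. SPRY2 (ENSG00000136158, chromosome 13), the least abundant of the 10 genes, had 444 in the TAZ4SA library, from 306 reads, and 410 in the control, from 456 reads. Its log2 ratio was 0.11 (-0.10 to 0.33), so a difference in either direction was not detectable at this depth, and the interval lay apart from those of SPRY1 and SPRY4. SPRY4 made up 59.9% of the 3 Sprouty transcripts per kilobase in TAZ4SA cells and 62.5% in control cells.

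The Spred genes went opposite ways. SPRED2 (ENSG00000198369, chromosome 2) had 3970 normalised counts in TAZ4SA cells and 3362 in control cells, with a log2 ratio of 0.24 (0.17 to 0.31). It was the one gene of the 10 with an interval wholly above a ratio of 1. SPRED1 (ENSG00000166068, chromosome 15), whose loss in people causes Legius syndrome, had 3194 in TAZ4SA cells and 3639 in control cells, with a log2 ratio of -0.19 (-0.26 to -0.11). Per kilobase the sum of the pair was 1157 in TAZ4SA cells and 1093 in control cells, and SPRED2 made up 66.6% of it in TAZ4SA cells and 59.7% in control cells.

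The ETS factor genes were lower by like amounts. ETV5 (ENSG00000244405, chromosome 3) had 3294 normalised counts in TAZ4SA cells and 4104 in control cells, with a log2 ratio of -0.32 (-0.39 to -0.24). ETV4 (ENSG00000175832, chromosome 17) had 4244 in TAZ4SA cells and 5121 in control cells, with a log2 ratio of -0.27 (-0.34 to -0.21). The intervals of the pair overlapped, and ETV4 made up 67.5% of their sum per kilobase in TAZ4SA cells and 66.7% in control cells. In the GRCh38 annotation, ETV4 overlaps DHX8 on the opposite strand, with 2429 reads in TAZ4SA cells and 3688 in control cells, and ETV5 overlaps DGKG on the same strand, with 366 reads in TAZ4SA cells and 667 in control cells. SPRY4 overlaps SPRY4-AS1 on the opposite strand, which had 32 reads in TAZ4SA cells and 79 in control cells. Antisense genes also overlap DUSP6 (AC024909.2) and ETV5 (ETV5-AS1), and their reads were not analysed here. Of 9 genes that overlap the members in all, 3 were in the table: DHX8, DGKG and SPRY4-AS1. The sources used here do not say whether the libraries kept strand. Reads from stretches that opposite-strand genes share therefore cannot be told apart. These overlaps are of whole gene spans, and the exon length shared was not measured. How reads shared with DGKG were counted was not stated.

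**Figure D2:**
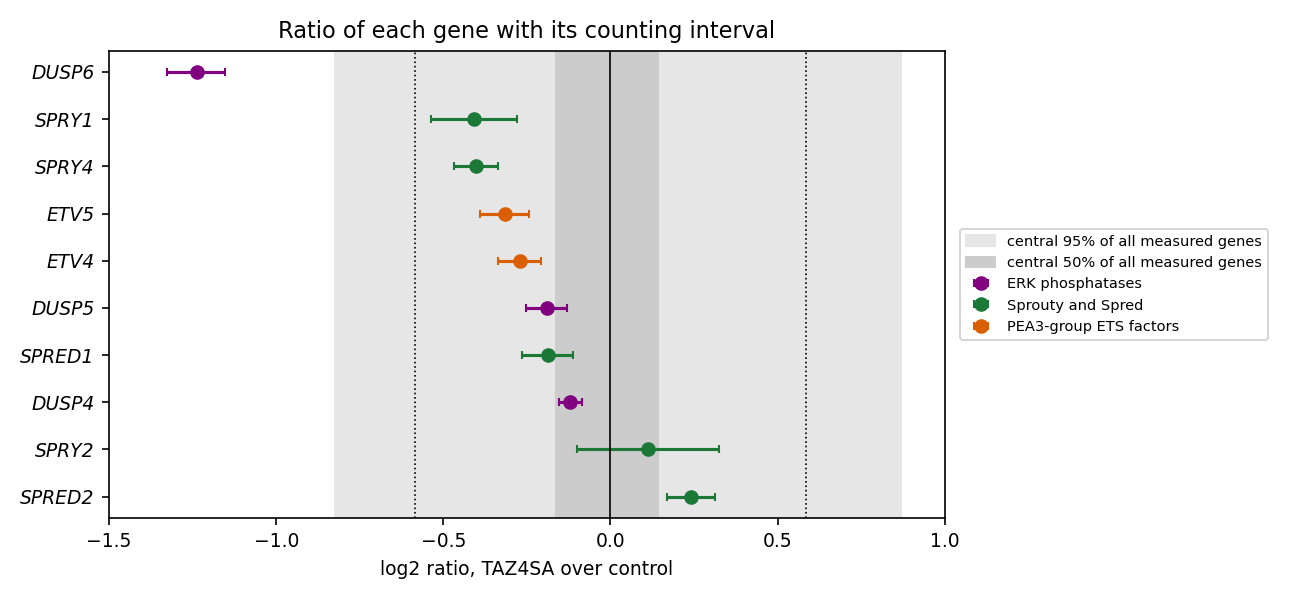
Log2 ratio of each gene, TAZ4SA over control, with its exact 95% counting interval as a bar; colours give the 3 kinds of gene, the dark and light bands hold the central 50% and 95% of the 14074 measured genes, and dotted lines mark 1.5-fold. DUSP6 at -1.24 is the one gene outside the light band, and SPRED2 and SPRY2 are the 2 genes above 0.

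Read against all genes, the set was shifted to one side by a small amount. The members were chosen with earlier results of these data known, so the shift is a description only. Its median log2 ratio was -0.23 (mean -0.28), beside a median of 0.00019 over the 14074 measured genes, and 8 of the 10 genes were below 0, beside 7030 of all 14074. At the threshold of 1.5-fold, with an interval excluding a ratio of 1, 1 of the 10 genes was lower and 0 were higher. Over all measured genes, 4.44% were lower and 4.16% higher by that rule. At 2-fold the count of the 10 was the same, beside 1.56% of all genes lower and 1.9% higher. At a ratio of 5:4, 3 of the 10 were lower and 0 higher, beside 9.9% of all genes lower and 8.12% higher; the 3 were DUSP6, SPRY1 and SPRY4.

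Without a fold threshold, the interval lay below a ratio of 1 for 8 of the 10 genes and above it for 1, where 25.2% and 24.5% of all measured genes did so. Narrow intervals come with many reads, and 9 of the 10 genes had a mean of at least 1000 normalised counts. Among all 7423 genes at that level, 31.3% lay below and 32% above. The central 50% of measured genes lay between -0.16 and 0.14 and the central 95% between -0.82 and 0.87. DUSP4 and SPRY2 fell within the first range, and every gene of the set but DUSP6 within the second. Among the 7423 abundant genes, SPRY1 ranked 352 and SPRY4 365 from the lowest ratio, ETV5 548 and ETV4 714, and SPRED2 ranked 666 from the highest.

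**Figure D3:**
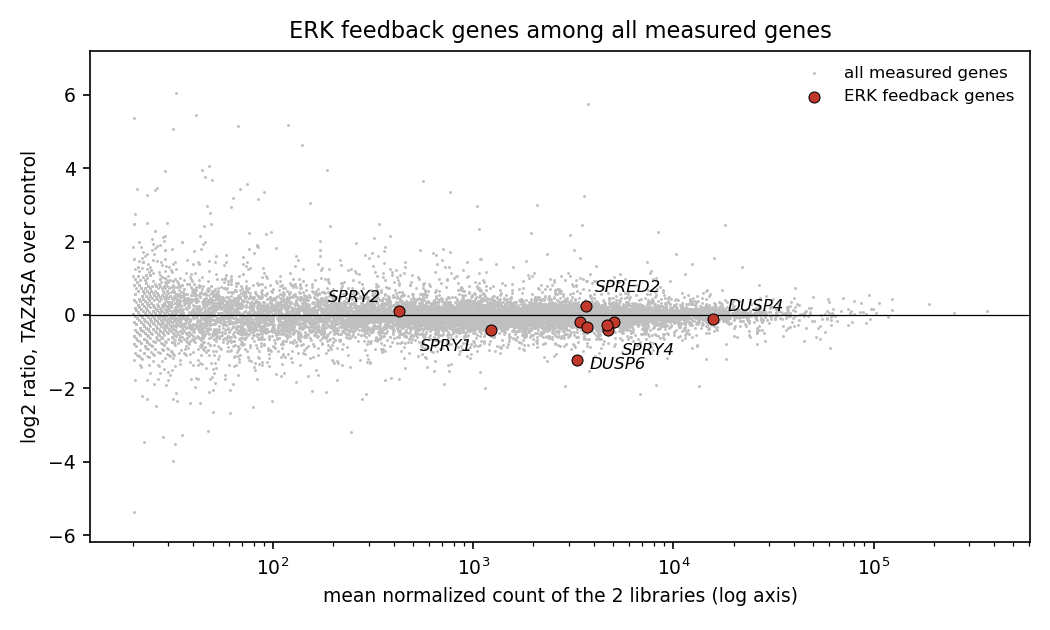
Log2 ratio, TAZ4SA over control, against the mean normalised count of the 2 libraries (log axis) for all 14074 measured genes (grey) and the 10 feedback genes (red). DUSP6 lies well below the grey cloud at its level, and the other 9 red points lie between -0.41 and 0.24.

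The closest relatives of the 10 genes did not follow them as a block. The MAP kinase phosphatase family also holds DUSP1 and DUSP2, nuclear and quickly induced, DUSP7 and DUSP9, cytoplasmic like DUSP6, and DUSP8, DUSP10 and DUSP16, which act on JNK and p38. Of these 7, 3 were at least 1.5-fold higher in the TAZ4SA library and 0 lower, beside 4.16% and 4.44% of all measured genes. The counting interval lay wholly above a ratio of 1 for 5 of the 7 and wholly below it for DUSP10. Over all measured genes, 24.5% lay above and 25.2% below. The median of the 7 log2 ratios was 0.34, or 0.16 over the 5 with a mean of at least 100. Of the latter, DUSP1 alone was called. DUSP1 had 1775 normalised counts in the TAZ4SA library, from 1224 reads, and 352 in the control, from 391 reads, or 5.05-fold higher (4.50 to 5.67). Per kilobase, DUSP1 stood at 879 in the TAZ4SA library, above DUSP6 at 427, and at 174 in the control, below DUSP6 at 1007.

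The cytoplasmic ERK phosphatases thus differed among themselves. DUSP7 had 1622 normalised counts in TAZ4SA cells and 1284 in control cells, with a log2 ratio of 0.34 (0.22 to 0.45), where DUSP6 was at -1.24. DUSP9 was scarce, with 56 reads in TAZ4SA cells and 47 in control cells, and its log2 ratio was 0.93 (0.36 to 1.53). DUSP8 was at 1.68 (1.16 to 2.28) on 85 reads in TAZ4SA cells and 42 in control cells. Of the 9 small atypical DUSP genes measured, the same rule called 1 higher and 1 lower (median log2 ratio 0.02). The shares over all measured genes were 4.16% higher and 4.44% lower. DUSP14 was at 0.90 and DUSP19 at -0.61, while DUSP12 was at 0.27 and DUSP18 at 0.21.

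In the PEA3 group, ETV1 completes the trio with ETV4 and ETV5. It was far less abundant, with 39 reads in TAZ4SA cells and 189 in control cells, and its normalised counts of 56.6 in TAZ4SA cells and 170 in control cells gave a log2 ratio of -1.57 (-2.12 to -1.08). That interval lay apart from those of ETV4 and ETV5. Of the 18 other ETS genes and repressors measured, ETV1 included, 1 passed the 1.5-fold rule upwards and 3 downwards (median log2 ratio -0.05). Over all measured genes, 4.16% passed it upwards and 4.44% downwards. ETS1, an ETS factor that ERK phosphorylates, was at 1.04, SPDEF, a factor of secretory epithelium, at -1.19 and the repressor ETV6 at -0.59. CIC, which represses ETV4 and ETV5 until ERK relieves it, had 2459 normalised counts in TAZ4SA cells and 2491 in control cells, with a log2 ratio of -0.02 (-0.11 to 0.07).

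The remaining Spred gene, SPRED3, was nearly absent next to SPRED1 and SPRED2, with 24 reads in TAZ4SA cells and 12 in control cells, and its log2 ratio of 1.60 (0.63 to 2.82) rests on those. SPRY3 had 18 reads in TAZ4SA cells and 42 in control cells, and an interval that included a ratio of 1. Both belong to a list of 21 other measured brakes on receptor and RAS signalling, with a median log2 ratio of 0.01. Of the 21, 2 passed the 1.5-fold rule upwards and 0 downwards, beside 4.16% and 4.44% of all measured genes. The second of the higher genes was RASAL2, a RAS GTPase activating protein gene, at 0.60, and SOCS5 was at 0.53.

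**Figure D4:**
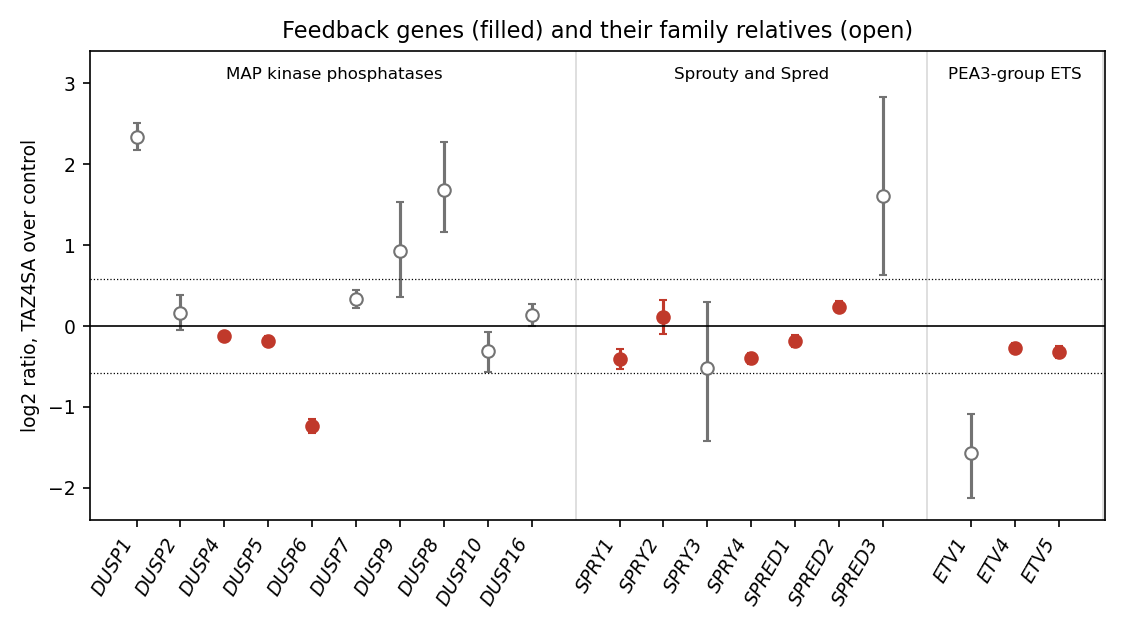
Log2 ratio, TAZ4SA over control, with exact 95% counting intervals, for the feedback genes (filled red) and their family relatives (open grey); dotted lines mark 1.5-fold. DUSP1 at 2.33 and DUSP6 at -1.24 stand on opposite sides, and ETV1 at -1.57 lies below ETV4 and ETV5.

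The genes of the pathway above the 10 were mostly within 1.5-fold, as were 89.9% of all measured genes. Of 24 measured genes of the cascade from receptor to ERK, 1 passed the 1.5-fold rule upwards and 0 downwards. Over all measured genes the shares were 4.16% and 4.44%. The median log2 ratio of the 24 was 0.07. EGFR had 96583 normalised counts in TAZ4SA cells and 76843 in control cells, with a log2 ratio of 0.33 (0.32 to 0.34). That sign was opposite to 8 of the 10 feedback genes and the same as SPRED2, while the direction of SPRY2 was not resolved. Of the 24 cascade genes, 12 had an interval wholly above a ratio of 1 and 2 wholly below. The shares over all measured genes were 24.5% and 25.2%. KSR1, a scaffold for RAF and MEK, was at 0.79, MAP2K1, which encodes MEK1, at 0.46 and HRAS at 0.43. MAPK3, which encodes the kinase ERK1, was at 0.02 (-0.09 to 0.12), an interval that included a ratio of 1. Among 7 EGF family ligands the rule called 0 higher and 1 lower (median log2 ratio -0.14, but 0.043 over the 4 with a mean of at least 100). That gene was EGF at -1.28, on 27 reads in TAZ4SA cells and 107 in control cells. TGFA was at 0.58, on 6105 reads in TAZ4SA cells and 6605 in control cells. The intervals of NRG2 (-0.38) and BTC (-0.31) included a ratio of 1.

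Other genes that ERK is known to induce were compared, since they share their input with the 10. Of 21 such genes, 2 passed the 1.5-fold rule upwards and 1 downwards, beside 4.16% and 4.44% of all measured genes. The median of the 21 was 0.08, where that of the 10 feedback genes was -0.23. EGR1, an immediate-early transcription factor gene, had 1404 normalised counts in TAZ4SA cells and 136 in control cells, with a log2 ratio of 3.36. FOSB was at 0.71 on few reads, FOS at -0.79, and EGR3 at -0.47 with an interval that included a ratio of 1. PHLDA1 and CCND1, the cyclin D1 gene, were named outside the rule after their values were seen. PHLDA1 was at -0.36 (-0.40 to -0.32) and CCND1 at 0.38 (0.35 to 0.41). Of the 21 genes, 11 had an interval wholly above a ratio of 1 and 6 wholly below. The shares over all measured genes were 24.5% and 25.2%.

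Proteins that bind or degrade the products of the 10 genes were also listed, among them the COP1 ubiquitin ligase (RFWD2 in the table) that targets ETV proteins. By the 1.5-fold rule, 2 of the 16 stood higher and 0 lower (median log2 ratio 0.05). Over all measured genes, 4.16% stood higher and 4.44% lower. CAV1, the caveolin gene, whose product binds Sprouty proteins, was at 0.68 and NEDD4, a ubiquitin ligase gene, at 0.67. FNTA was at 0.15, and the interval of DET1 (-0.14) included a ratio of 1. For scale, 14 of 21 direct TAZ and YAP targets passed the 1.5-fold rule upwards and 0 downwards (median log2 ratio 0.94). CYR61 was at 2.26, ANKRD1 at 3.25, NUAK2 at 3.65 and CTGF at 3.68, the last on 64 reads in TAZ4SA cells and 7 in control cells.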

How the data were processed

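RNA was sequenced from 1 TAZ4SA and 1 control library of PC9 cells. Trim Galore and STAR, together with HTSeq, DESeq2 and the GRCh37 build, appear in the submitters' processing notes without roles or versions. The deposited signal values are gene read counts that the authors divided by 1 factor per library (0.689 for TAZ4SA, 1.11 for control): 100% of values in both columns were whole multiples of the column's step within 0.01 reads, so reads were recovered. The log2 values that the authors deposited beside them matched the ratio of both columns within 0.000136. No count test could be run with 1 library per group.

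Each ratio was log2 of (normalised count + 1), TAZ4SA over control, a scale on which low genes differ less than they do without the pseudocount; folds omit it. Intervals are conditional binomial (Clopper-Pearson), from reads that are not independent molecules. Called genes had a mean normalised count of at least 20, a difference of at least 1.5-fold and an interval excluding a ratio of 1. The members, the 13 other lists (4 of them cell type markers) and the rules were chosen with earlier results of these data known. Named genes were the 10 members, WWTR1, the 4 ratios farthest from 0 in each list, and CYR61, EGFR, MAPK3, CIC and DUSP1 whatever their values; 1 gene that the rule names is not reported here. Exon lengths came from GENCODE 29 on GRCh38, matched by identifier for 97.2% of genes; no coordinates of the table's build are given.

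The rule was tested on simulated Poisson counts with known changes. Those counts held no spread between cultures, so they cannot show how the rule performs across cultures. Alternatives covered scaling, pseudocount, depth, filters, thresholds and length. Scaling factors came from edgeR 4.0.16 and DESeq2 1.42.0 in R 4.3.3; the rest used scipy 1.17.1, numpy 2.4.6, pandas 2.3.3 and matplotlib 3.10.9 under Python 3.11.15.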

Additional observations from a re-analysis of the deposited data

How the results depend on the processing

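The log2 ratios of the 10 genes stayed within their counting intervals in all 80 alternatives of scaling, pseudocount and depth (control reads thinned to the TAZ4SA total), as did WWTR1 in 8. The median of the 10 lay between -0.24 and -0.23 under these settings, and their mean was -0.28. Of 90 alternative medians of the 9 other pathway lists, 88 kept their sign and stayed within 0.1 log2 units. The other 2 came with a minimum mean of 100, which left fewer genes: the median was 0.16 for the 5 remaining MAP kinase phosphatases, of which 1 was higher, and 0.043 for the 4 remaining EGF family ligands, a change of sign. Otherwise each list's number of higher or lower calls moved by at most 1 gene, down to 2 lower ETS genes under 3 settings; ETV6 (-0.59) stood at the threshold itself. Under the 4 scalings the all-gene median stayed within 0.0042 of 0. Counts changed with thresholds, by construction: of the 10 genes, 3 were lower at a ratio of 5:4, and 8 were lower and 1 higher with no fold threshold. Over all genes, 267 were higher and 219 lower at 2-fold, 1143 and 1394 at 5:4, 3442 and 3541 with no fold threshold, and 326 and 385 with a minimum mean of 100, beside 586 and 625 in the report. Levels per kilobase depend on the length used, alike in both libraries. With the longest transcript, the normalised counts per kilobase of DUSP4, ETV4, SPRED2, SPRY4, ETV5, SPRED1, SPRY1 and SPRY2 were 2730, 1747, 969, 756, 801, 411, 405 and 164 in TAZ4SA cells and 2968, 2108, 821, 998, 998, 468, 537 and 152 in control cells, with DUSP6 at 1060 in control cells. No paired analysis was possible because the design holds a single library per group, and no replicate could be left out. Depth limits SPRY2 most among the 10, with 306 reads in TAZ4SA cells and 456 in control cells, and the scarce relatives SPRED3, DUSP8, DUSP9 and ETV1.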
